A study of Mus musculus with 4 samples.

Results

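The cell cycle genes described here are 38 genes that are transcribed mainly while a cell copies its DNA or divides, out of 32285 features measured in each library. They were named by symbol and not by their values. The S set holds 14 genes of DNA replication (Mcm2, Mcm3, Mcm4, Mcm5, Mcm6, Mcm7, Pcna, Tyms, Rrm1, Rrm2, Gins2, Uhrf1, Hells and Pclaf). The G2M set holds 24 genes of late S phase and mitosis (Mki67, Top2a, Cdk1, Ccnb1, Ccnb2, Ccna2, Birc5, Ube2c, Cenpf, Cenpe, Cenpa, Tpx2, Aurka, Aurkb, Bub1, Bub1b, Plk1, Kif11, Kif23, Nusap1, Prc1, Hmmr, Cdc20 and Cks2). A barcode, the tag of 1 droplet, was kept when it held at least 1000 UMIs (unique molecular identifiers, each counting 1 captured RNA molecule) and at most 10% mitochondrial UMIs. A kept barcode with at least 5 UMIs of the 38 genes, from at least 3 of them, is called cycle-positive here, and 2502 of 37865 kept barcodes were.

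Cells dissociated from whole mouse aorta gave 1 single-cell 3′ library (10x Genomics) for each of 4 groups. Normal diet was fed to a WT and a LysM-DKO group, and western diet to a WT/ApoE-/- and a LysM-DKO/ApoE-/- group. Values below follow that order, and the last 2 are called the western libraries. LysM-DKO is not written out in the labels, but the title of the series concerns epsins, the endocytic adaptor proteins, and LysM is the usual name of the lysozyme M promoter that drives Cre in myeloid cells. They give neither the age of the mice nor how many aortas went into a library. ApoE-/- mice lack apolipoprotein E, a ligand for clearing lipoproteins from blood, and form plaque on a fat-rich diet. With 1 library per group no test between conditions was possible, so intervals (exact 95%) cover counting error alone, and they are too narrow wherever several UMIs come from 1 cell.

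As background, a cell that is to divide first licenses its replication origins by loading the MCM helicase ring (Mcm2 to Mcm7), and the GINS complex, with its subunit Gins2, joins the ring when an origin fires. It then copies DNA with the clamp Pcna and with nucleotides made by Tyms, Rrm1 and Rrm2, while Uhrf1 and Hells carry DNA methylation onto the new strand. Cyclin A (Ccna2), cyclin B (Ccnb1, Ccnb2) and their kinase Cdk1 drive entry into mitosis, the Aurora and Plk1 kinases and the centromere proteins build the spindle attachment, Bub1 and Bub1b hold the checkpoint, and Cdc20 and Ube2c direct the protein destruction that ends it. In the adult artery most wall cells are at rest, and division of macrophages and of smooth muscle cells is a known feature of plaque.

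The 2 sets are told apart in textbooks by their promoters: E2F sites are known from genes of replication, and the CHR element with CCAAT boxes from genes of mitosis. For the 2 S and the 2 G2M genes with the most UMIs in cycle-positive barcodes among those that hold the motif, 200 bases around the start are shown (190 before, 10 after) as a picture of that difference. The windows are from RefSeq on GRCm38.p6 and are written 5′ to 3′ along the gene. Capitals mark a CCAAT box, an E2F word (TTTGGCGC, TTTCGCGC, TTTCCCGC or TTTGCCGC) or the CHR, whose letters are TTTGAA, read on either strand, with overlapping matches run together.
Mcm6, chr1:128359696-128359895, minus strand: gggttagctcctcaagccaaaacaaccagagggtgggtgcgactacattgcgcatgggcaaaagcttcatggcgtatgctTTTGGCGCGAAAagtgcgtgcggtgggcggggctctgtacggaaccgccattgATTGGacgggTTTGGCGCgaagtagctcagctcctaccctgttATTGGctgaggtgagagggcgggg
Pclaf, chr9:65890133-65890332, plus strand: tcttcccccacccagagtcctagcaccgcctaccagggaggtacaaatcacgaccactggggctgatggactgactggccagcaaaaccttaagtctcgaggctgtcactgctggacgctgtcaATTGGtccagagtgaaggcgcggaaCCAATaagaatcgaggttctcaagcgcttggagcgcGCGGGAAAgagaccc
Mki67, chr7:135716370-135716569, minus strand: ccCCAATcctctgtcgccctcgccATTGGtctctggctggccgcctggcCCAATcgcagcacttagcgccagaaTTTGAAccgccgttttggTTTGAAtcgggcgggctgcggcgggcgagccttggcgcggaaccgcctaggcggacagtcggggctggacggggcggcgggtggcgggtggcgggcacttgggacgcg
Top2a, chr11:99024180-99024379, minus strand: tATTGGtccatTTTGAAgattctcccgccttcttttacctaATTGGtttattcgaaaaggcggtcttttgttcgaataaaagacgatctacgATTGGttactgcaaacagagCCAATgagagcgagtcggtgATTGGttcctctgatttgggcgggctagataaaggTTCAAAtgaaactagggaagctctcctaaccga
In these windows Mcm6 had 3 E2F words and Pclaf had 1, neither had a CHR, and both had 2 CCAAT boxes. Mki67 had 2 CHR and 3 CCAAT boxes and Top2a had 2 CHR and 5 CCAAT boxes, with no E2F word in either. Windows of 300 bases (250 before, 50 after) were found for 33 of the 38 genes, 12 of the S set and 21 of the G2M set. An E2F word lay in 7 of the 12 S genes (58.3%; Mcm3, Mcm5, Mcm6, Mcm7, Pclaf, Uhrf1 and Hells) and in 1 of the 21 G2M genes (4.76%; Cdk1), against 2.61% of 27025 genes with a window. A CHR lay in 15 of the 21 G2M genes (71.4%) and in 1 of the 12 S genes (8.33%; Mcm2), against 20.2% of all. CCAAT boxes lay in 83.3% of the S genes and 90.5% of the G2M genes, against 41.1% of all. These matches are letters in a sequence, not measured sites. The genes lie on 16 chromosomes, and 8 of them overlap a gene on the opposite strand, among them Pclaf with Trip4, Ube2c with Tnnc2 and Mcm7 with Cops6 and Ap4m1.

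The libraries differed in size and depth. Their total counts lay between 50662515 and 67450979 UMIs, and kept barcodes numbered 7758, 8230, 13744 and 8133 with medians of 4167, 3404, 2103 and 6761 UMIs. Xist was at 950, 950, 0.636 and 0.563 CPM (counts per 1000000 UMIs of the library or class) and the Y-linked Ddx3y at 0, 0, 117 and 124, so sex, ApoE genotype, diet and the version of the authors' counting software all changed together between the 2 pairs of libraries and cannot be told apart. Comparisons below are therefore between genotypes within a diet, and values of the 2 diets are set side by side only. In the macrophage class, Epn1 was at 83.4, 54.7, 52.4 and 42.9 CPM and Epn2 at 34.2, 34.3, 33.2 and 15.7, from 11 to 205 UMIs, and 3′ tags need not come from a deleted exon. Lyz2, the lysozyme M gene itself, was at 3710 and 4126 CPM in macrophages of the WT libraries and at 993 and 801 in those of the LysM-DKO libraries. Pairs of libraries shared 38 to 129 barcodes, of which at most 1 was cycle-positive in both.

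Taken over all kept barcodes, the S genes were the more abundant set. The 3′ counts do not scale with transcript length, so levels of different genes are on 1 scale. Pcna, the sliding clamp of the DNA polymerases, was at 129, 131, 94.4 and 73.3 CPM, the highest of the 38 in every library, and 25.5% to 42.0% of kept barcodes held a UMI of it. Of the helicase genes, Mcm6 was at 25.6, 35.1, 22.9 and 27.5 CPM, Mcm4 at 15.9, 17.6, 14.5 and 13.5, Mcm7 at 15.6, 18.2, 12.4 and 9.23 and Mcm3 at 11.1, 17.0, 11.2 and 5.89. Mcm4 and Mcm6 were thus the flattest across libraries. Mcm2 (7.22, 11.4, 5.60 and 3.16) and Mcm5 (5.18, 9.16, 3.84 and 1.97) were the least abundant of the ring, and all 6 were highest in the LysM-DKO normal library.

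The other S genes were also at their highest in that library, Tyms there level with the WT/ApoE-/- western library. Rrm1, the large subunit of ribonucleotide reductase, was at 15.4, 20.6, 18.96 and 14.1 CPM. Its regulated small subunit Rrm2 was at 4.61, 9.24, 6.96 and 2.92, and thymidylate synthase Tyms at 6.21, 12.2, 12.1 and 8.33. Uhrf1 was at 5.64, 10.5, 4.57 and 2.20, Hells at 7.12, 12.5, 5.75 and 4.82 and Gins2 at 6.06, 9.45, 6.16 and 3.52. Pclaf, a small partner of Pcna, varied most of the S set, with 3.56 (3.003 to 4.19), 17.1 (15.8 to 18.4), 7.32 (6.61 to 8.08) and 1.58 (1.27 to 1.94) CPM. The counting intervals of these 4 Pclaf values did not overlap, whereas those of Pcna overlapped between the 2 normal diet libraries (126 to 133 and 127 to 134).

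Most G2M genes were rarer and more uneven. Mki67, which coats mitotic chromosomes, was at 9.74 (8.81 to 10.7), 36.5 (34.6 to 38.5), 26.2 (24.9 to 27.6) and 7.93 (7.21 to 8.69) CPM. Top2a, which untangles replicated DNA, was at 11.6, 31.9, 19.5 and 6.56. Both were highest in the LysM-DKO normal library and lowest in the LysM-DKO/ApoE-/- western library. The kinase Cdk1 was at 0.982, 3.89, 5.17 and 1.35 CPM, cyclin B1 (Ccnb1) at 0.859, 3.31, 3.22 and 0.721, cyclin A2 (Ccna2) at 2.28, 5.64, 4.83 and 1.49 and the checkpoint kinase Bub1 at 0.344, 1.22, 2.26 and 0.527. These 4 regulators were at their 2 lowest values in the WT normal and the LysM-DKO/ApoE-/- western libraries. Cenpf, a kinetochore protein, was at 1.89, 6.83, 11.3 and 2.87 CPM, the hyaluronan receptor and spindle protein Hmmr at 1.28, 2.88, 6.14 and 1.65, and the kinesin Cenpe at 1.91, 5.77, 7.82 and 2.11, all highest in the WT/ApoE-/- western library. Ube2c (6.11, 17.1, 11.5 and 4.08), Birc5, the survivin subunit of the Aurora B complex (3.48, 10.3, 7.39 and 2.67), and the spindle bundler Prc1 (9.23, 17.1, 15.9 and 7.22) followed Mki67 in which libraries were highest and lowest.

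A few G2M genes did not share that pattern. Cks2, a small Cdk-binding protein, was at 43.8, 41.6, 34.7 and 21.7 CPM, and the centromere histone Cenpa at 43.5, 32.3, 13.5 and 4.43. Both were highest in the WT normal library, and Cenpa spanned the widest range of the 2. Cdc20 was at 5.45, 4.87, 6.25 and 2.76 and the kinesin Kif23 at 7.14, 8.50, 8.61 and 5.54, each nearly level over the first 3 libraries. The remaining G2M genes, Ccnb2, Tpx2, Aurka, Aurkb, Bub1b, Plk1, Kif11 and Nusap1, lay between 0.368 and 11.3 CPM. In these bulk sums fewer cycling cells and less RNA per cell cannot be told apart, which is why the UMIs are traced to barcodes next.

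The 38 genes differed widely in how their UMIs were spread over barcodes. For each gene, the share of its UMIs that lay in barcodes with at least 20 UMIs of the other 37 genes was taken, so that a gene did not select its own barcodes. Bub1 had a mean of 86.6% over the 4 libraries, Hmmr 78.4%, Cenpf 78.3% and Pclaf 74.9%. Mki67 stood at 56.7, 81.4, 58.1 and 64.1% and Cdk1 at 52.5, 76.2, 57.2 and 83.1%. At the other end, Pcna stood at 2.03, 9.26, 7.51 and 1.97%, Mcm4 had a mean of 10.9%, Mcm6 of 11.04% and Cks2 of 15.3%. Of the G2M genes 13 of 24 had a mean above 50%, and of the S genes 1 of 14, Pclaf. A mean under 25% was found for 10 S genes and for 3 G2M genes, Kif23, Cenpa and Cks2. The order of the genes was much alike in all libraries (Spearman's rho 0.877 to 0.953 over the 38 genes for the 6 pairs of libraries, a description only, since the genes share the barcodes that they pick out).

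Cenpa was the gene whose place moved most with the library. Its share in such barcodes was 4.74% and 14.3% in the normal diet libraries and 33.2% and 31.8% in the western libraries. In the T class its level was 202, 118, 62.2 and 126 CPM, and with every barcode of at least 20 cell cycle UMIs left out it was still 199, 116, 52.1 and 104. Cenpa UMIs of the normal diet libraries thus lay mainly outside the barcodes rich in other mitotic genes. Of the G2M genes with a promoter window, a CHR was present in 7 of 11 with a mean share above 50% and in 8 of 10 at or below it.

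**Figure D1:**
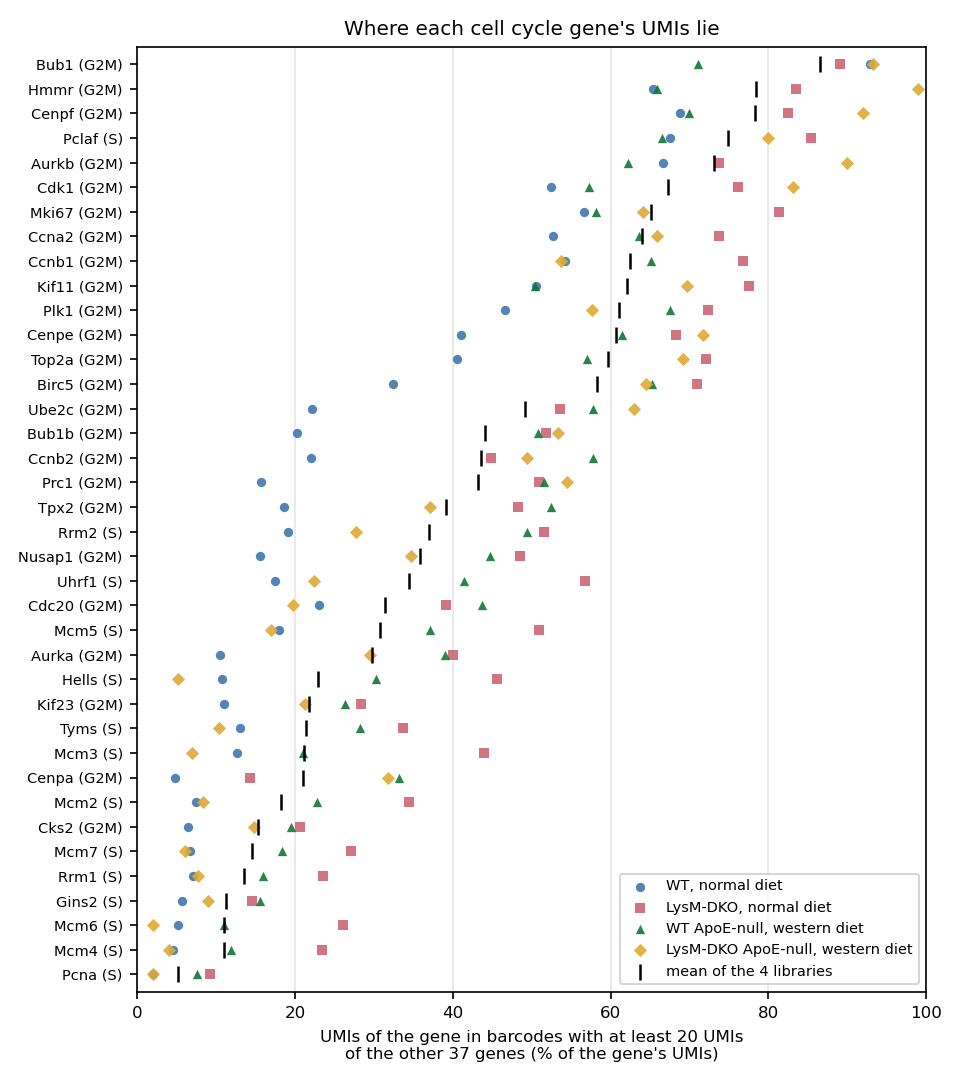
For each gene (rows, ordered by the mean), the share of its UMIs that lay in barcodes with at least 20 UMIs of the other 37 genes, as 1 point per library with a bar at the mean of the 4 libraries. Bub1, Hmmr and Cenpf lie at the top with means of 86.6, 78.4 and 78.3%, and Pcna lies at the bottom with 5.19%.

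The rule of 5 UMIs and 3 genes picked barcodes of unlike content. Cycle-positive barcodes were 793 of 7758 (10.2%, 9.56 to 10.9), 689 of 8230 (8.37%, 7.78 to 8.99), 688 of 13744 (5.01%, 4.65 to 5.38) and 332 of 8133 (4.08%, 3.66 to 4.54). Their median depth was 7754, 7391, 6230 and 9848 UMIs, against 3770, 3185, 2015 and 6679 for the other kept barcodes, so the rule took deep barcodes. Each barcode was also thinned to 1000 UMIs and called at 2 UMIs and 2 genes, which no kept barcode was too shallow for. The shares then were 6.24, 7.23, 6.08 and 2.03%. The WT normal library was no longer the highest, and the LysM-DKO/ApoE-/- western library remained the lowest.

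Pcna, Cks2, Cenpa and Mcm6, the 4 most abundant of the genes with a low share in rich barcodes, made up much of what the rule counted. They gave 60.6, 55.9, 54.8 and 57.9% of cell cycle UMIs in barcodes that were not cycle-positive. In cycle-positive barcodes of under 20 UMIs they gave 61.8, 52.8, 34.7 and 52.7%. In barcodes of at least 20 UMIs they gave 19.7, 15.1, 14.7 and 13.98%. A UMI of Mki67 or Top2a was present in 3.03, 3.85, 3.10 and 1.68% of the first kind, 16.2, 23.8, 43.6 and 20.5% of the second and 89.3, 100, 95.6 and 95.8% of the last. The share of these 4 genes in barcodes of 5 to 19 UMIs was thus near that of barcodes below the rule in every library but WT/ApoE-/- western, while Mki67 or Top2a was present more often in each library.

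For that reason barcodes with at least 20 UMIs of the 38 genes, called cycle-rich here, are followed through the rest of the text, a bound that was chosen after these values were seen. They numbered 28 (0.361%, 0.240 to 0.521), 87 (1.06%, 0.848 to 1.30), 91 (0.662%, 0.533 to 0.812) and 24 (0.295%, 0.189 to 0.439), and all were cycle-positive. Their median content was 42.5, 69, 46 and 63 cell cycle UMIs, up to 565, from a median of 16.5, 22, 20 and 23.5 of the 38 genes. They held 11.3, 38.3, 33.0 and 18.7% of all cell cycle UMIs of their library. The summed level of the 38 genes was 430, 603, 441 and 259 CPM with them and 384, 384, 301 and 212 without them. In barcodes under 1000 UMIs it was 439, 476, 384 and 260.

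Barcodes of red cells, which have no nucleus when mature, gave a background level. Barcodes with at least 50% hemoglobin UMIs numbered 428, 396, 35 and 19, and 36.7, 48.7, 28.6 and 42.1% of them held a UMI of the 38 genes, at median depths of 2342, 2423, 1743 and 1172 UMIs. Of kept barcodes, 73.1, 69.6, 51.8 and 70.4% held one, at the depths given above. The summed level of the 38 genes in the hemoglobin-rich barcodes was 261, 348, 300 and 934 CPM, the last from 19 barcodes. Kept barcodes without the cycle-rich ones were at 384, 384, 301 and 212 CPM. A single UMI is therefore not read as division here.

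**Figure D2:**
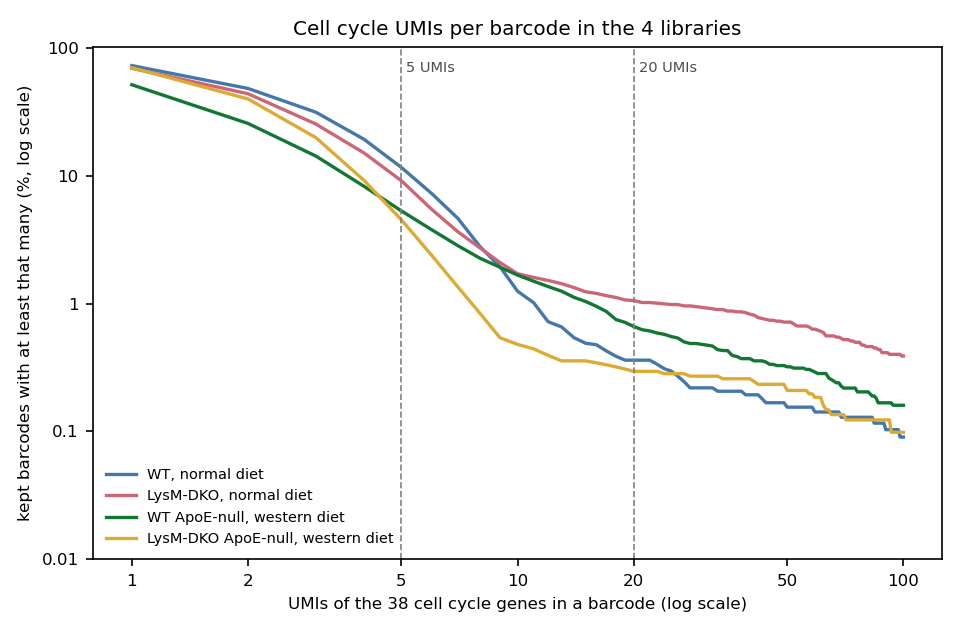
Share of kept barcodes (vertical, log scale) with at least a given number of UMIs of the 38 genes (horizontal, log scale), 1 line per library, with dashed lines at 5 and 20 UMIs. At 5 UMIs the WT normal library is highest with 11.6%, and at 20 UMIs the LysM-DKO normal library is highest with 1.06% against 0.361% for WT normal.

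Cycle-rich barcodes were spread over every class, in unequal shares. Each kept barcode took the first class whose rule it met: thymocyte-like (Rag1 and Dntt, at least 1 UMI), macrophage (C1qa, C1qb and C1qc, at least 5), B (Cd79a and Ms4a1, at least 2), T (Cd3d, Cd3e and Trac, at least 2), endothelial (Pecam1 and Cdh5, at least 2), fibroblast (Pdgfra and Serpinf1, at least 3) and smooth muscle (Myh11 and Cnn1, at least 3). No doublets were removed, and 294, 359, 177 and 65 of the cycle-positive barcodes met more than 1 rule. Of the cycle-rich barcodes 22 of 28, 60 of 87, 29 of 91 and 8 of 24 did, most of those on normal diet. With the smooth muscle rule not counted, 12, 23, 11 and 3 of them met more than 1 rule. Cycle-rich barcodes were also deep, with medians of 9567.5, 11007, 9024 and 11425 UMIs. The share of other barcodes of like depth that met more than 1 rule was not taken. The cycle-rich share was 0.0545 to 0.350% in smooth muscle and 0.349 to 1.01% in endothelial barcodes. It was 1.26 to 3.23% in T and 1.94 to 3.73% in macrophage barcodes.

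**Figure D3:**
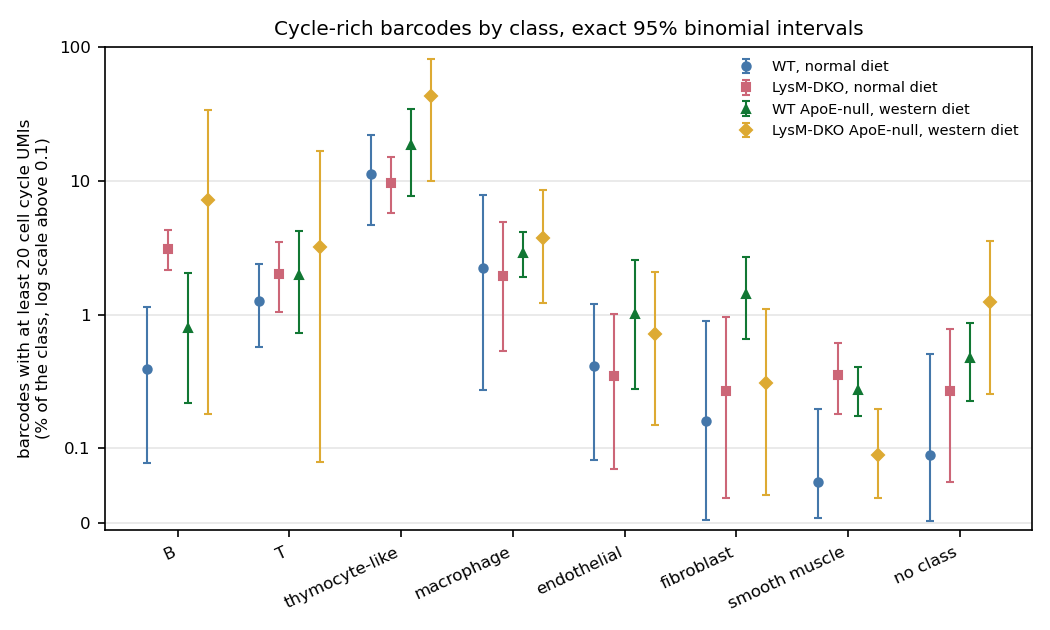
Share of barcodes with at least 20 UMIs of the 38 genes in each class (vertical, log scale above 0.1%), 1 point per library with its exact 95% binomial interval. In the B class the LysM-DKO normal library stands at 3.08% and the WT normal library at 0.390%, and smooth muscle lies below all other named classes in the WT normal library at 0.0545%.

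The B class held the most cycle-rich barcodes of the LysM-DKO normal library. They were 3 of 769 (0.390%, 0.0805 to 1.14) in WT normal, 34 of 1103 (3.08%, 2.14 to 4.28) in LysM-DKO normal, 4 of 502 (0.797%, 0.217 to 2.03) in WT/ApoE-/- western and 1 of 14 in LysM-DKO/ApoE-/- western. The intervals of the 2 normal diet libraries did not overlap. All 34 of the LysM-DKO normal barcodes held at least 3 UMIs of a list of 7 B markers, and 24 also met the smooth muscle rule. Compared with the other B barcodes of that library, their Cd79a was at 502 against 1114 CPM and Ighm at 11600.5 against 8710. Genes known from germinal centre B cells, picked after their values were seen, were higher in them: Mef2b at 125 against 5.25 CPM, Rgs13 at 80.1 against 3.99 and S1pr2 at 40.1 against 4.62. They come from no fixed list, so they do not name the state of these barcodes, which was not tested. Mzb1 was at 1704 against 432 CPM, while the antibody joining chain Jchain was at 942 against 3041.

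Macrophages held cycle-rich barcodes in each library, 2 of 89 (2.25%, 0.273 to 7.88), 4 of 206 (1.94%, 0.531 to 4.90), 27 of 939 (2.88%, 1.90 to 4.16) and 5 of 134 (3.73%, 1.22 to 8.49). All 4 intervals overlapped. In the WT/ApoE-/- western library, where 27 can be described, C1qa was at 2795 CPM in cycle-rich and 3272 in other macrophages, Trem2 at 699 and 849, Gpnmb, a gene of lipid-laden macrophages, at 637 and 976 and Spp1 at 11598 and 10706. The resident macrophage gene Mrc1 was lower in them, at 54.9 against 268 CPM, as was Acta2 of smooth muscle, at 959 against 4440. Apart from Mrc1, the macrophage genes named here were thus of the same order in cycle-rich and other macrophages.

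Smooth muscle barcodes were rarely cycle-rich: 2 of 3672 (0.0545%, 0.00660 to 0.197), 12 of 3424 (0.350%, 0.181 to 0.611), 24 of 8820 (0.272%, 0.174 to 0.405) and 6 of 6634 (0.0904%, 0.0332 to 0.197). The intervals overlapped by little between the genotypes on each diet. In the 24 of the WT/ApoE-/- western library, contractile genes were lower than in the other smooth muscle barcodes, with Acta2 at 7829 against 17497 CPM and Myh11 at 1470 against 4746. Vcam1, an adhesion molecule, was at 5374 against 916 CPM. All 24 held at least 3 UMIs of a list of 6 modulated wall cell genes, 23 of the fibroblast list, 20 of the pericyte list and 5 of the B list. Their median depth was 6890.5 UMIs against 2219.5 for the whole class, and such counts are not given for other barcodes of like depth. In the 12 of the LysM-DKO normal library Acta2 was at 2487 against 15324 CPM and Vcam1 at 2328 against 145, and 6 of the 12 held at least 3 UMIs of the B list. Smooth muscle is the last rule tried, so cells of other types with a few Myh11 or Cnn1 UMIs can enter it.

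In T barcodes the cycle-rich share was 9 of 717 (1.26%, 0.576 to 2.37), 12 of 597 (2.01%, 1.04 to 3.49), 6 of 305 (1.97%, 0.725 to 4.23) and 1 of 31. All 9 and all 12 of the normal diet libraries met another class rule as well, as did 4 of the 6 and the 1 of the western libraries, and 7 of the 9 and 11 of the 12 met that of smooth muscle. The thymocyte-like class had the highest share, 7 of 62 (11.3%, 4.66 to 21.9), 17 of 176 (9.66%, 5.73 to 15.0), 7 of 38 (18.4%, 7.74 to 34.3) and 3 of 7. Of its cycle-rich barcodes 7 of 7, 13 of 17, 5 of 7 and 2 of 3 also met the T rule, and 5, 11, 1 and 3 the smooth muscle rule. Over the whole class 21 of 62, 48 of 176, 10 of 38 and 2 of 7 met the T rule. Acta2 was at 9636, 8820, 9360 and 10018 CPM in the class's other barcodes and at 3237, 2677, 2742 and 1123 in its cycle-rich ones. Contractile RNA was thus high outside the cycle-rich barcodes, and most of the class's barcodes did not meet the T rule.

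Among endothelial barcodes 3 of 729, 3 of 860, 4 of 394 and 3 of 417 were cycle-rich. The 4 of the WT/ApoE-/- western library held 837 cell cycle UMIs, 48.9% of that class's total there, and their label was uncertain. They met the rule of Pecam1 and Cdh5, but Vwf, Tie1, Egfl7 and Cldn5 had no UMI. Kdr, the other endothelial marker, is not given here. All 4 held at least 3 UMIs of the smooth muscle, fibroblast and pericyte lists and are called mixed below. Fibroblast barcodes were cycle-rich in 1 of 624, 2 of 745, 9 of 634 (1.42%, 0.651 to 2.68) and 2 of 653. All 9 of the WT/ApoE-/- western library also held at least 3 UMIs of the modulated wall cell list, which shares Lum with the fibroblast list. The median depth of these 9 was 11946 UMIs against 4048.5 for the whole class. Such counts are not given for other fibroblasts of like depth. Barcodes of no class gave 1 of 1096, 3 of 1119, 10 of 2112 and 3 of 243.

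Levels of single genes differed between classes and libraries. In B barcodes Mki67 was at 15.4, 92.4 and 23.9 CPM in the first 3 libraries, Top2a at 15.1, 76.7 and 35.8 and Pclaf at 7.70, 64.4 and 24.7. In T barcodes Mki67 was at 19.2, 69.9, 84.4 and 81.1 and Top2a at 39.2, 88.7, 83.3 and 126, the last values of each from 9 and 14 UMIs. In smooth muscle Mki67 was at 4.99, 17.1, 10.1 and 4.29 and Cdk1 at 0.608, 2.55, 4.11 and 1.08, while Pcna was at 114, 112, 73.4 and 69.8. In endothelial barcodes Mki67 was at 7.74, 8.29, 35.7 and 4.22 CPM, where the high value belongs to the library with the 4 mixed barcodes. In fibroblasts it was at 3.18, 5.24, 27.4 and 16.3.

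Mki67 stood above Top2a in macrophages of each library. With cycle-rich barcodes left out, Mki67 was at 60.1 (39.6 to 87.4), 27.2 (17.9 to 39.6), 44.8 (38.2 to 52.2) and 116 (91.3 to 145) CPM there, whereas Top2a was at 11.1, 8.06, 17.9 and 3.003. In smooth muscle the same values were 3.87, 5.56, 5.43 and 1.497 CPM for Mki67 and 4.74, 6.34, 6.19 and 1.79 for Top2a, nearly equal to each other. In T barcodes of the first 3 libraries Mki67 was the lower, at 3.24, 9.39 and 23.7 against 21.5, 25.7 and 26.1. In B barcodes of these libraries it was too, at 3.04, 9.03 and 14.7 against 8.77, 13.0 and 21.2. Barcodes of no class in WT/ApoE-/- western had Mki67 at 21.4 and Top2a at 12.0 CPM. A UMI of Mki67 was present in 13.8, 7.92, 10.7 and 20.2% of the remaining macrophages, at median depths of 4697, 4593, 2616 and 3992 UMIs. It was present in 1.33, 1.82, 1.81 and 0.860% of the remaining smooth muscle barcodes, at 6226, 3662, 2209 and 6972 UMIs. Of all macrophages with Mki67, 5 of 14, 9 of 20, 62 of 123 and 12 of 30 held any other G2M gene apart from Cks2 and Cenpa. Of smooth muscle barcodes with Mki67, 13 of 50, 35 of 74, 103 of 178 and 21 of 63 did. Such shares were thus not particular to macrophages. Of B barcodes with Mki67 in the first 3 libraries, 8 of 11, 46 of 53 and 14 of 17 did. In the LysM-DKO/ApoE-/- western library the 77 Mki67 UMIs of macrophages that were not cycle-rich came from 26 barcodes, beside 2 UMIs of Top2a.

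The balance between the S and the G2M set differed by class. Of cell cycle UMIs in cycle-rich barcodes, 34.0, 38.5, 26.6 and 19.3% were from S genes. In the 34 B barcodes of the LysM-DKO normal library the share was 46.4%. In the 12 T barcodes of that library it was 38.3%, and in its 12 smooth muscle barcodes 19.9%. In the WT/ApoE-/- western library it was 33.9% in 27 macrophages and 18.1% in 24 smooth muscle barcodes, and in the LysM-DKO/ApoE-/- western library 9.79% in 6 smooth muscle barcodes and 10.1% in 5 macrophages. A barcode was called S-led or G2M-led when that set gave at least 2/3 of its cell cycle UMIs, which cuts a range rather than naming types. The B barcodes of LysM-DKO normal were 11 S-led, 8 G2M-led and 15 mixed, with 20 within 10 percentage points of a cut. The 24 smooth muscle barcodes of WT/ApoE-/- western were 2 S-led, 21 G2M-led and 1 mixed, with 7 near a cut, and the 27 macrophages were 5, 15 and 7, with 5 near a cut.

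Other genes of the cell cycle, in 5 lists that share no gene with the 38, were compared between cycle-rich barcodes and those that were not cycle-positive, gene by gene on the log2 CPM scale over genes with at least 20 UMIs. The 38 genes picked these barcodes, so the values describe them and are not tested. Of 34 other S genes, 31, 34, 34 and 32 had enough UMIs, and all were higher, with medians of 3.09, 3.79, 3.68 and 3.42. Of 40 other G2M genes, 33, 40, 40 and 36 had enough, all were higher, and their medians were 4.58, 4.84, 6.09 and 6.66. Over all genes the median was 0.29, -0.00, 0.11 and 0.30, and 23.8, 18.1, 17.0 and 27.1% were more than 2-fold higher. Dut, which clears dUTP, was at 313, 443, 297 and 254 CPM in cycle-rich barcodes against 43.7, 49.1, 50.2 and 58.7 in the others. The condensin gene Smc4 was at 642, 440, 472 and 474 against 74.2, 68.4, 57.6 and 39.8. The histone chaperone Nasp differed less, at 290, 300, 159 and 191 against 205, 179, 106 and 100.6, and so did Ckap5, a microtubule protein, at 87.1, 87.2, 156 and 191 against 48.1, 45.7, 58.4 and 64.5.

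The lists that lie around S phase and mitosis were less uniform. All 17 chromatin and tubulin genes were higher in each library, with medians of 2.04, 2.11, 1.92 and 2.27. H2afz, the histone variant H2A.Z, was at 2434, 3072, 2422 and 2317 CPM against 592, 714, 356 and 253. Of 14 genes of G1 entry 12, 11, 12 and 12 were higher, with medians of 1.76, 2.08, 1.72 and 1.57. Cdk4, the G1 kinase, was at 67.8, 151, 127 and 85.7 against 36.9, 37.7, 47.6 and 41.9, but its partner cyclin D2 (Ccnd2) was lower in each library, at 194, 256, 190 and 286 against 348, 332, 350 and 346. These values pool the classes, and within the B class of LysM-DKO normal Ccnd2 was higher in cycle-rich barcodes, at 339.8 against 195 CPM. Myc was at 77.5, 55.1, 22.2 and 88.6 against 102, 78.5, 29.2 and 21.0. Of the inhibitors and pocket proteins 6 of 11, 8 of 12, 6 of 12 and 8 of 12 were higher. The antiproliferative gene Btg2 was lower in each library, at 232, 244, 312 and 197 against 537, 469, 758 and 857 CPM, and the Cdk inhibitor Cdkn1a was at 320, 202, 397 and 560 against 347, 399, 241 and 219.

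Genes outside every list were ranked within a class by the smallest log2 ratio of cycle-positive over other barcodes, taken over the libraries with at least 20 cycle-positive barcodes of that class. The ranking picks the genes, so these ratios are a description. In smooth muscle the leading genes were not genes of the cell cycle. Basp1 led with log2 ratios of 2.12, 2.43, 1.44 and 5.45, followed by Cytip, a protein of blood cells, at 1.81, 1.97, 1.42 and 4.18. H2-Eb1, an MHC class II chain of antigen-presenting cells, was at 1.43, 1.78, 1.39 and 4.48, and Cd74, its invariant chain, at 1.08, 1.51, 1.08 and 4.06. Genes of immune cells thus stood higher in cycle-positive than in other smooth muscle barcodes of each library, and the part of mixed droplets in this was not tested. In B barcodes Txn1, the thioredoxin gene, led at 1.27, 1.74 and 1.601 in the first 3 libraries. In T barcodes of the same libraries Mthfd2, a mitochondrial folate enzyme, was at 0.77, 1.53 and 1.45. Timp1, an inhibitor of matrix proteases, led in endothelial barcodes at 3.54, 2.60, 0.76 and 2.12, and Spp1, which encodes osteopontin, in fibroblasts at 7.93, 3.78, 1.55 and 0.69. In macrophages the leading gene, the cytolinker Plec, reached 2.09, 0.69, 0.36 and 0.96.

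The first contrast between genotypes was LysM-DKO against WT on normal diet, over all kept barcodes. Of the 38 genes 35 were higher in LysM-DKO, with a median log2 ratio of 0.89, against 0.03 for all genes of at least 20 UMIs. More than 2-fold higher were 16 of the 38, where 6.13% of all genes were, and 1.07% of all genes and none of the 38 were more than 2-fold lower. Of the 16, 15 were G2M genes. The summed level of the 38 was higher by 0.49 (0.46 to 0.52) on the log2 scale, and with the 28 and 87 cycle-rich barcodes left out it was -0.00. Without the thymocyte-like class 17 of the 38 were more than 2-fold higher (6.18% of all genes) and the median was 0.89. Cenpa, Cks2 and Cdc20 were the 3 genes that were lower in LysM-DKO. The share of cycle-positive barcodes went the other way, with a log2 ratio of -0.29 (-0.44 to -0.14), which was 0.21 when barcodes were thinned to 1000 UMIs and 1.53 for cycle-rich barcodes.

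By class, the difference on normal diet was greatest in B barcodes. Of the 36 genes with at least 20 UMIs there, 35 were higher in LysM-DKO and 26 were more than 2-fold higher, where 4.6% of all genes were. None was more than 2-fold lower, where 1.73% of all were. The median was 2.14, that of the 14 S genes 0.998 and that of the 22 G2M genes 2.42. Mki67 was higher by 2.57 (2.15 to 3.05), Top2a by 2.33 (1.90 to 2.82), Pclaf by 3.03 (2.45 to 3.74) and Uhrf1 by 2.97 (2.22 to 3.96), while Pcna was higher by 0.25 (0.07 to 0.43) and Cenpa lower, at -0.59 (-0.79 to -0.38). The summed level was higher by 1.06 (0.98 to 1.14) and by -0.04 with the 3 and 34 cycle-rich barcodes left out, so the sums differed little without those 37 barcodes of 2 libraries. Genes of other cell types were present in these barcodes as given above, and their part in the result was not tested.

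The other classes differed less on normal diet. In T barcodes 14 of 32 genes were more than 2-fold higher in LysM-DKO (4.76% of all genes) and 1, Cdc20, more than 2-fold lower (1.76%). The sum was higher by 0.25 (0.18 to 0.33), and by -0.15 without cycle-rich barcodes, with Mki67 at 1.86 (1.45 to 2.29), Aurkb at 2.52 (1.197 to 4.38) and Cenpa at -0.78 (-0.97 to -0.58). In smooth muscle 11 of 36 were more than 2-fold higher (6.38% of all genes) and none lower (1.02%), the sum was higher by 0.30 (0.25 to 0.34) and by 0.04 without cycle-rich barcodes, and Ccnb1 was at 2.70 (1.66 to 4.08) from 8 and 40 UMIs. In macrophages 8 of 21 were more than 2-fold higher (6.52% of all genes) and none lower (2.6%), the sum was higher by 0.33 (0.16 to 0.51), and without the 2 and 4 cycle-rich barcodes it was lower, at -0.29. In endothelial and fibroblast barcodes the sums were 0.01 (-0.09 to 0.10) and -0.03 (-0.16 to 0.10), where the 2 sets went opposite ways. In endothelial barcodes the S sum was 0.15 (0.03 to 0.26) and the G2M sum -0.25 (-0.40 to -0.09). In fibroblasts they were -0.24 (-0.39 to -0.08) and 0.41 (0.18 to 0.65). Without cycle-rich barcodes the 2 G2M sums were -0.13 (-0.32 to 0.06) and -0.16 (-0.42 to 0.10), both with intervals across 0. Of the 742 G2M UMIs of endothelial barcodes in WT normal, 250 lay in 1 barcode. More than 2-fold higher were 2 of 31 endothelial and 3 of 24 fibroblast values (3.34 and 2.76% of all genes), and more than 2-fold lower 3 and none (1.13 and 1.5%). The share of macrophages that were cycle-positive was 22.5% in WT and 14.6% in LysM-DKO, a log2 ratio of -0.64 with an interval across 0 (-1.49 to 0.27), and -1.95 without barcodes that met several rules.

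On western diet the direction was the opposite over all kept barcodes. Of the 38 genes 37 were lower in LysM-DKO/ApoE-/- than in WT/ApoE-/-, with a median log2 ratio of -1.22, against -0.02 for all genes. More than 2-fold lower were 23 of the 38, where 11.6% of all genes were, with or without the thymocyte-like class, and 20 of these were G2M genes. Mcm6 was the exception, and none was more than 2-fold higher, where 2.36% of all genes were. The summed level was -0.77 (-0.80 to -0.74), and without the 91 and 24 cycle-rich barcodes -0.51. The G2M sum was -1.30 (-1.35 to -1.25) and -1.18 without them. The S sum was -0.40 (-0.44 to -0.36), and -0.23 without them. The share of cycle-positive barcodes had a log2 ratio of -0.29 (-0.49 to -0.10), which was -1.58 thinned to 1000 UMIs and turned to 0.35 with barcodes from 500 UMIs admitted and to 0.48 at 3 UMIs and 2 genes. The LysM-DKO/ApoE-/- library had the greater depth, 6761 against 2103 UMIs per kept barcode at the median, and 134 against 939 macrophages, 14 against 502 B, 31 against 305 T and 7 against 38 thymocyte-like barcodes. In both western libraries these 4 classes had higher summed levels of the 38 genes than the other named ones.

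Within smooth muscle, the class with most barcodes in both western libraries, the G2M genes were still lower. All 24 were lower in LysM-DKO/ApoE-/-, 17 of them more than 2-fold, and of the 38 genes 19 were more than 2-fold lower, where 9.56% of all genes were. None was more than 2-fold higher, where 1.91% of all were. The G2M sum was -1.01 (-1.07 to -0.94) and -0.97 without cycle-rich barcodes, and the S sum was -0.09 (-0.13 to -0.04). Bub1 was at -2.22 (-3.33 to -1.31), Ccnb1 at -2.11 (-2.88 to -1.44), Cdk1 at -1.92 (-2.42 to -1.46) and Cenpf at -1.80 (-2.15 to -1.48), and of the S genes Pclaf stood with them at -2.21 (-2.88 to -1.62). Pcna was at -0.07 (-0.15 to 0.00), Mcm4 at 0.00 (-0.18 to 0.18) and Mcm6 higher, at 0.51 (0.38 to 0.64). Thinned to 1000 UMIs and called at 2 UMIs and 2 genes, 3.85% (3.46 to 4.28) of smooth muscle barcodes were positive in WT/ApoE-/- and 1.43% (1.16 to 1.75) in LysM-DKO/ApoE-/-.

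In macrophages on western diet the S and the G2M sums went opposite ways. All 14 S genes were lower in LysM-DKO/ApoE-/-, 7 of them more than 2-fold, with a median of -1.04 and a sum of -0.55 (-0.77 to -0.35). Of 23 G2M genes with enough UMIs 17 were higher, with a sum of 0.50 (0.35 to 0.65). Over both sets 9 of 37 were more than 2-fold lower (9.18% of all genes) and 1, Ccnb1, more than 2-fold higher (4.06%). Rrm2 was at 13.0 and 1.43 CPM from 51 and 1 UMIs, a log2 ratio of -2.62 (-8.52 to -0.65), and Uhrf1 at -1.94 (-5.33 to -0.32) from 53 and 2. Mki67 was at 106 and 180 CPM, a ratio of 0.77 (0.47 to 1.06), and Cks2 at 84.1 and 147, a ratio of 0.81 (0.47 to 1.13). Without cycle-rich barcodes the G2M sum was 0.47 and the S sum -0.25. Mki67 itself was at 44.8 and 116 CPM without them, and Top2a at 17.9 and 3.003. Mki67 gave 413 of 1910 G2M UMIs in macrophages of WT/ApoE-/- and 126 of 483 in those of LysM-DKO/ApoE-/-. Outside cycle-rich barcodes it had 163 and 77 UMIs. How far the G2M sum rests on Mki67 was not tested. The LysM-DKO side rests on 134 barcodes, 5 of them cycle-rich. Cycle-positive were 14.8% of macrophages in WT/ApoE-/- and 21.6% in LysM-DKO/ApoE-/-, a log2 ratio of 0.57 with an interval across 0 (-0.08 to 1.13). The direction turned at 10 UMIs and 5 genes (-0.23), when thinned to 1000 UMIs (-0.29) and with Pcna, Cks2, Cenpa and Mcm6 not counted (-0.30).

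**Figure D4:**
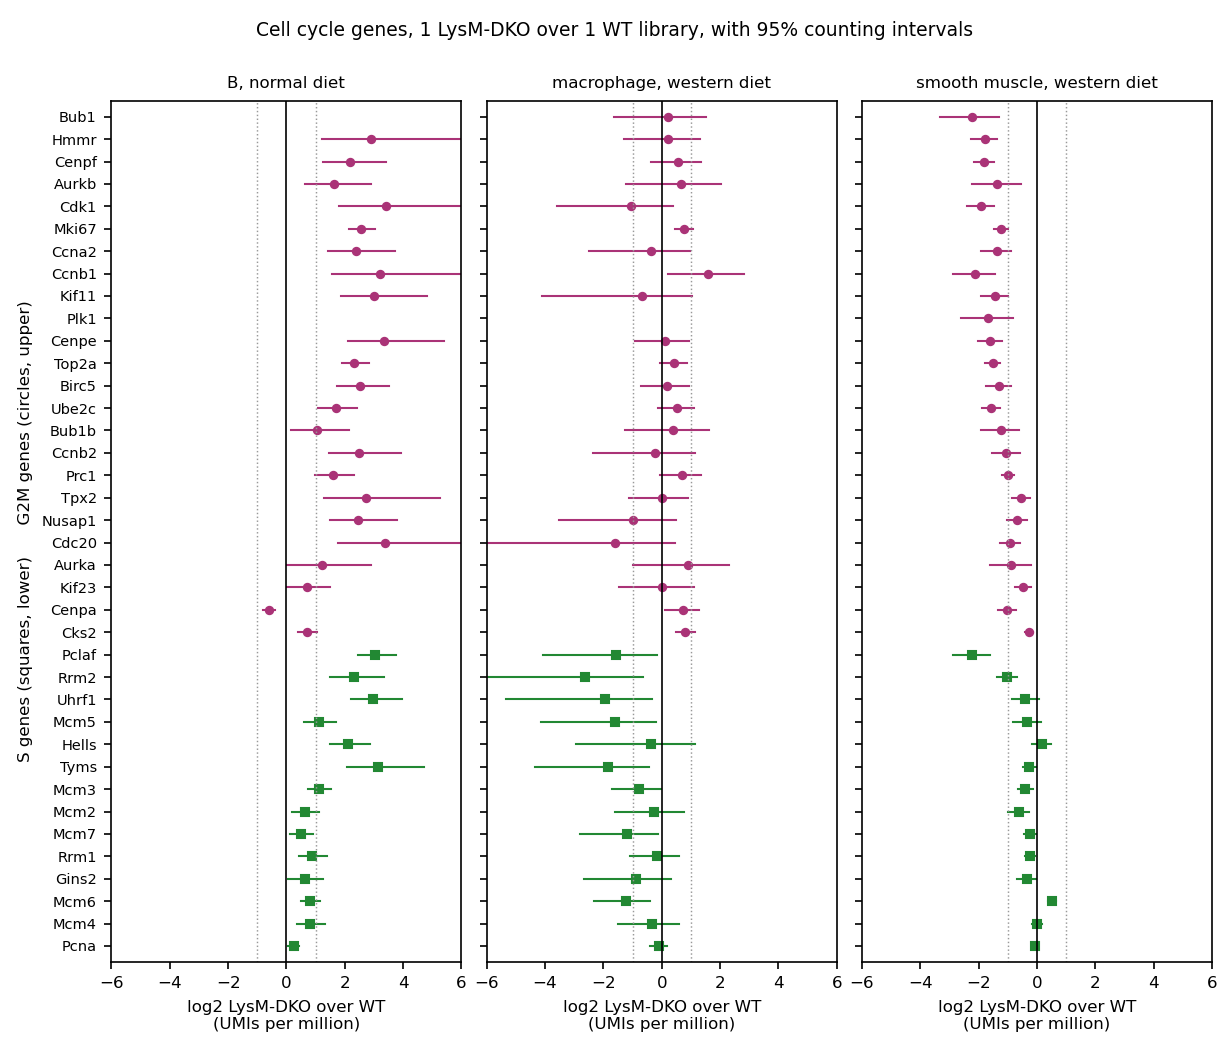
Log2 ratio of LysM-DKO over WT for each gene (G2M circles above, S squares below) in B barcodes on normal diet, macrophages on western diet and smooth muscle on western diet, with exact 95% counting intervals cut at 6 and dotted lines at a 2-fold change. Genes under 20 UMIs over the 2 libraries are not drawn. Nearly all B points lie right of 0 (35 of 36), the 14 S squares of macrophages lie left of it, and the 24 G2M circles of smooth muscle lie left of it.

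Of the remaining classes on western diet, endothelial, fibroblast and T barcodes had lower sums in LysM-DKO/ApoE-/-. In endothelial barcodes 18 of 31 genes were more than 2-fold lower in LysM-DKO/ApoE-/- (3.68% of all genes) and none higher (3.03%), with a sum of -0.97 (-1.09 to -0.86), which was -0.19 without cycle-rich barcodes, the 4 mixed ones among them. In fibroblasts 7 of 33 were more than 2-fold lower (3.68% of all genes) and none higher (3.16%), with a sum of -0.26 (-0.36 to -0.15), which was 0.13 without them. In T barcodes 18 genes had enough UMIs, 2 were more than 2-fold higher (7.25% of all genes) and 2 lower (9.76%), and the sum was -0.26 (-0.54 to -0.01). The B class of LysM-DKO/ApoE-/- had 14 barcodes, and no ratio is given for it. Its summed level was higher than in WT/ApoE-/-, at 1833 against 842 CPM, and 656 against 677 without cycle-rich barcodes. The thymocyte-like class was also higher, at 4527 against 3286 CPM from 7 and 38 barcodes, and at 321 against 382 without cycle-rich ones.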

How the data were processed

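Whole mouse aorta was measured in 4 single-cell libraries. The deposited matrices hold UMI counts per gene and barcode, whole numbers that the authors did not scale. Per the file headers, Cell Ranger 6.0.1 made the normal diet counts and 6.1.2 the western diet counts, while the submitters' processing notes list Cell Ranger 6.1.2, Seurat 4.1.0 and mm10. Whether antisense reads were counted is not given in the sources used here.

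Barcodes under 1000 UMIs or above 10% mitochondrial UMIs were dropped, and no doublet caller was run. Counts were summed per class and library and divided by the summed UMIs (CPM). Log2 ratios had 0.5 UMIs added, covered genes of at least 20 UMIs over both libraries, and counted as a difference past 2-fold. Intervals are exact (Clopper-Pearson for shares, Poisson for counts, conditional binomial for ratios, without the added 0.5), computed with scipy 1.17.1 and tested on simulated counts. All 38 genes are named. From each of the 5 lists beside them the 3 genes with the most UMIs in cycle-positive barcodes could be named, with up to 2 genes past 2-fold against the list, and of genes in no list the 8 leading ones per class. The genes, lists and tests were chosen with earlier results of these data known. The bound of 20 UMIs, the germinal centre and macrophage state genes and the alternatives that use 20 UMIs, leave out Pcna, Cks2, Cenpa and Mcm6, or leave out barcodes of 2 or more rules other than smooth muscle were chosen after the data were seen.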

Additional observations from a re-analysis of the deposited data

Results flagged for a closer look

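The summed level of the 38 cell cycle genes differed between LysM-DKO and WT in opposite directions on the 2 diets, which was not tested. Over all kept barcodes the log2 ratio was 0.49 on normal diet and -0.77 on western diet. In T barcodes it was 0.25 and -0.26, and in smooth muscle 0.30 and -0.42. Each value compares 1 library with 1 library, and the diets also differ in ApoE genotype, sex and software version.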

How the results depend on the processing

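Across 8 results and 84 alternatives, 43 values kept their direction and moved within their counting error, 28 moved further and 13 changed sign. No paired analysis was possible because each group is 1 library. The log2 ratio of the cycle-positive share, LysM-DKO over WT, was -0.29 on normal diet (-0.32 without the thymocyte-like class, given second in each pair below). It was 0.70 and 0.63 at 10 UMIs and 5 genes, -0.58 and -0.58 without barcodes of several class rules, 0.21 and 0.19 thinned to 1000 UMIs, 0.02 and -0.02 thinned to 2000, 1.53 and 1.65 at 20 UMIs, and 0.87 and 0.83 with Pcna, Cks2, Cenpa and Mcm6 not counted. On western diet it was -0.29 and -0.29. It was 0.35 and 0.35 from 500 UMIs per barcode, -0.92 and -0.91 from 2000, 0.48 and 0.48 at 3 UMIs and 2 genes, -1.90 and -1.98 at 10 UMIs and 5 genes, -1.58 and -1.59 thinned to 1000, -1.96 and -1.97 thinned to 2000, -1.14 and -1.22 at 20 UMIs, and -1.83 and -1.88 without the 4 genes. In macrophages the ratio was -0.64 on normal diet and -1.95 without barcodes of several rules. On western diet it was 0.57, and -0.23 at 10 UMIs and 5 genes, -0.29 thinned to 1000 and -0.30 without the 4 genes. The median over the 38 genes without the thymocyte-like class, 0.89 on normal diet, was 0.84 from 500 UMIs, 0.95 from 2000, 0.78 at up to 20% mitochondrial UMIs, 0.68 without barcodes of several rules, 0.63 with equal weight for each barcode and 0.18 without cycle-rich barcodes. On western diet it was -1.24, and -1.21 from 500 UMIs, -1.20 without barcodes of several rules and -1.02 without cycle-rich barcodes. The cause was not tested. With 1 library per group, no replicate could be left out.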
